A study of Mus musculus with 3 samples.

Results

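Kdm1a, the mouse gene of the histone demethylase LSD1, was examined in RNA of ovulated oocytes that carry the floxed allele of this gene without the Cre that would delete it. It is 1 gene of 21951 protein-coding genes in the annotation (GENCODE mouse release M21), chosen by its name and place and not by its level. The series holds 3 libraries, 1 from each of 3 litters, and no second group. Per the labels, the oocytes came from superovulated females of mixed strain with the genotype LSD1 FL/FL and no ZP3::Cre transgene, and were collected by embryonic day 0.5. Cre in that cross is driven by the Zp3 promoter, which is active in growing oocytes. All 3 litters share the floxed alleles. The sources used here do not name the exons between the loxP sites or the number of oocytes in a library. RNA was amplified as cDNA by single primer isothermal amplification (SPIA), a linear copying at constant temperature.

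LSD1 is a flavin-dependent amine oxidase that takes methyl groups off H3K4, a histone mark found at active promoters and enhancers. It works in a complex with the corepressor CoREST (gene Rcor1) and the deacetylases HDAC1 and HDAC2. Oocytes store RNA and protein for the embryo, and LSD1 inherited from the egg is known to be needed early in development. Its relative LSD2 (gene Kdm1b) acts on the same mark and is known for its role in setting imprints in growing oocytes.

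The libraries held 31787887 to 35183199 alignments of 72 bases, and 85.2% to 85.6% of these repeated a start position already used in the same library. Of 9 oocyte markers, 4 could be placed in the files by the start position measure described below. By the depth score chosen first, Bmp15 (ratio 1.64) and Oosp1 (ratio 1.54) also passed the limit of 1.5. The zona pellucida genes Zp1, Zp2 and Zp3 and the maternal-effect gene Nlrp5 had means of 38.8 to 136 alignments per kilobase of possible start positions per 1000000. Of the 8 cumulus and granulosa markers and the 3 blood markers, 0 could be placed, so no level is given for them. Genes of few exons can hardly be placed this way. Foxl2 has 1 exon and could not be searched, and Inha, Ptx3, Hbb-bs and Hba-a1, of 2 or 3 exons, scored equally well at separate places. The count of 0 therefore does not show that RNA of these cells was absent. Where a level is low in these bulk samples, fewer cells and less RNA per cell cannot be told apart.

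The first question was where Kdm1a lies in the files, whose build (mm9) is not that of the annotation (GRCm38). The exons of the annotated transcript Kdm1a-203 (ENSMUSG00000036940.15, minus strand, 19 exons, 3008 bases) were moved base by base over up to 10 Mb of chromosome 4 in each direction, and the mean log2(1 + depth) of exons was set against that of introns. The best match put the gene at chromosome 4, 136106455 to 136158638 (mm9), with a score of 3.81 against 2.91 for the best place more than 5 kb away. That ratio of 1.31 lay under the 1.5 set as needed for a placed gene. Litter 1 alone and litter 2 alone gave the same place, while litter 3 alone scored highest elsewhere (ratio 1.02).

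Other measures singled out the same place. With each base taken only as covered or not, the best match lay 2 bases away at a ratio of 1.79, and the same measure led to within 2 bases of the place in every litter alone, with ratios of 1.68, 1.77 and 1.33 in litters 1, 2 and 3. The share of exons holding a whole alignment, multiplied by the share of the gene's start positions that lie whole in exons, peaked 6 bases away, at 0.775 against 0.182 at the next best place, a ratio of 4.27. This last measure was chosen after the data were seen. Of 7 neighbouring genes searched on their own, 3 fell within 10 bases of the same shift between the builds by at least 1 of the measures, and 4 (Htr1d, Lactbl1, Ephb2 and Zfp46) fell elsewhere by both. Distances are given here from the shift that depth gave for Kdm1a. By start positions Tcea3 (a transcription elongation factor) lay 1 base from it and Hnrnpr (an RNA-binding protein) 5, with ratios of 3.08 and 2.02. By depth Hnrnpr scored highest 7.88 Mb away. By depth Luzp1 lay 2 bases away, although at a ratio of only 1.17. From a shift of -2 to one of 2 bases, the number of alignments whole in exons stayed between 3192 and 3211, so exon borders are known only to within a few bases.

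**Figure D1:**
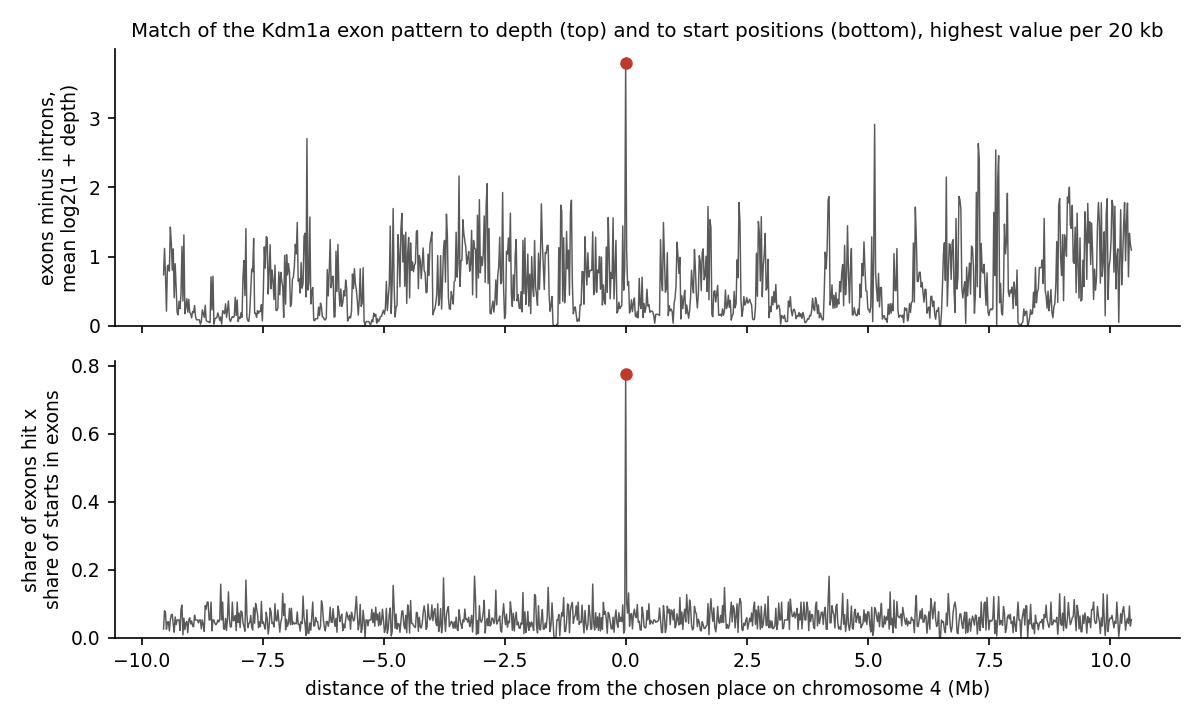
Match of the Kdm1a exon pattern at each place tried on chromosome 4, as the highest value per 20 kb, against the distance from the chosen place (Mb). The top panel plots mean log2(1 + depth) of exons minus introns and the bottom panel the share of exons hit times the share of start positions in exons; the peak at 0 reaches 3.81 and 0.775, above every place more than 5 kb away.

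The exons that carry the findings below are shown as they stand in the annotated transcript (GENCODE M21), 5′ to 3′, with capitals at bases that had a depth of at least 10 in every litter. Exons 3 and 18 had the highest mean RPKM of the gene, although exon 3 ranked only 5 in litter 3. Exons 5 and 15 held no whole alignment in any litter.
exon 3: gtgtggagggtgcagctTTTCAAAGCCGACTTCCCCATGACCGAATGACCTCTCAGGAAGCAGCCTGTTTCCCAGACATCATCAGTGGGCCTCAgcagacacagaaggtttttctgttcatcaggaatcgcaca
exon 5: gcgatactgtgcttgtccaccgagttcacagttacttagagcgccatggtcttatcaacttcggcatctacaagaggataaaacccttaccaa
exon 15: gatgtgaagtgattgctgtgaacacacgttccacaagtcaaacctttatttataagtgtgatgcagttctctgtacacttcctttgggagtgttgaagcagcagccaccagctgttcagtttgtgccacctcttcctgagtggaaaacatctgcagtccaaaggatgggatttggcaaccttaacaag
exon 18: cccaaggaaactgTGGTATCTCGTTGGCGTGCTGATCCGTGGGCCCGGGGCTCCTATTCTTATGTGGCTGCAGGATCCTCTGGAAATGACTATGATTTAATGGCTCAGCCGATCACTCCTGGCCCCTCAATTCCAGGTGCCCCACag
In exon 3, 77 of 134 bases reached that depth in all litters, from base 18 to base 94, and in exon 18, 132 of 147 did. In exons 5 (93 bases) and 15 (188 bases) the number was 0.

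Kdm1a RNA was present in every litter. Summed over all exonic bases, its level in alignments per kilobase per 1000000 (RPKM) was 11.2, 19.4 and 7.18 in litters 1, 2 and 3, with a mean of 12.6 ± 6.23 (SD, n = 3). Litter 2 was highest and litter 3 lowest, 2.70-fold apart. The counts behind these levels were 1197, 1866 and 695 alignments over exons. The difference exceeded counting error (chi-square test against library totals, Benjamini-Hochberg adjusted with all windows, p = 6.29e-130), but so did that of 97.5% of the 10913 windows of 1 kb with a mean of at least 10 alignments per 1000000. A ratio over 2-fold as well, which Kdm1a had, was found in 54.5% of windows, and one over 4-fold in 17.4%. Kdm1a was under 2-fold without litter 2 (1.57) or without litter 3 (1.73). It stayed under 4-fold with all litters, and 34.0% of the windows had a higher ratio than it did. Kdm1a is here a sum over 19 exons and each window a single stretch of 1 kb, so the units are unlike. Poisson counting error leaves out amplification.

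Much of the gap between litters came from 1 exon. Exon 3 stood at 45.2 RPKM in litter 1, 174 in litter 2 and 9.99 in litter 3. It held 40.03% of the Kdm1a alignments of litter 2, against 17.96% and 6.19% in litters 1 and 3. Without exon 3, a choice made after seeing the data, the gene stood at 9.67, 12.2 and 7.04 RPKM, 1.73-fold apart. In litter 2 the 608 alignments whole in exon 3 used only 40 start positions, or 15.2 alignments per position used, against 4.54 in litter 1 and 2.92 in litter 3. With each start position counted once, the litters stood at 26.9, 29.0 and 18.6 for the gene, per 1000000 start positions used, 1.56-fold apart. The 1 kb window of exon 3 was the only Kdm1a window deep enough to be tested. This window met the limit, a mean of at least 10 alignments per 1000000, only through litter 2. It reached 5.91, 23.1 and 1.34 alignments per 1000000 in litters 1, 2 and 3, a 17.2-fold range. By the same chi-square test its Benjamini-Hochberg adjusted p was 1.79e-184, so it is among the 17.4% of windows past both limits. The value that let the window in also sets its range, so this call is no separate support for a difference between litters. Without litter 2 its ratio was 4.40. Without litter 3 its ratio was 3.91, under the 4-fold limit, and the windows past both limits fell from 1903 to 115.

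**Figure D2:**
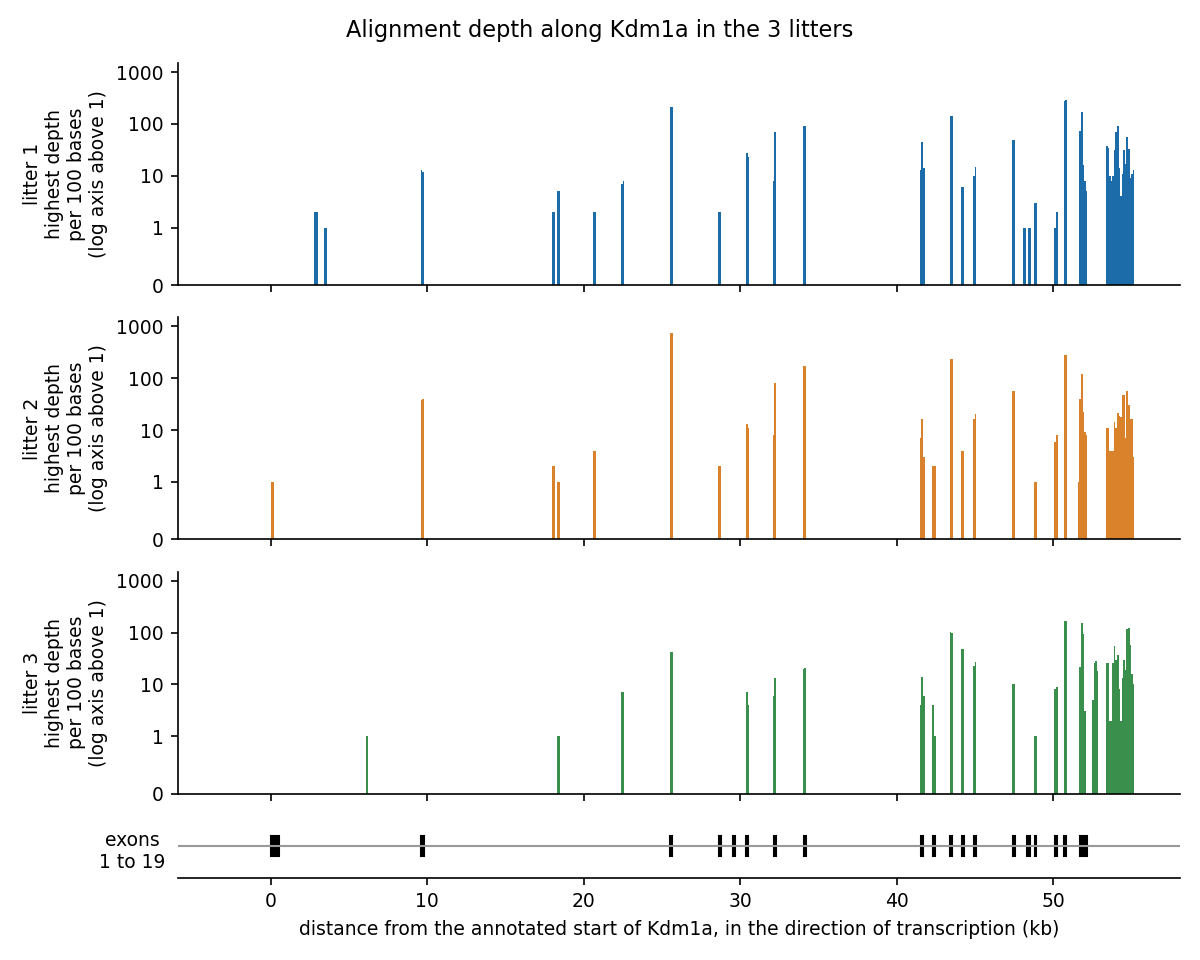
Highest depth per 100 bases (log axis above 1) along Kdm1a in litters 1, 2 and 3, against the distance from the annotated start in kb, with the 19 exons as boxes. Depth sits on exons and introns are nearly empty; exon 3 peaks at a depth of 215, 747 and 43, and the signal right of exon 19 lies outside the gene.

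Exon by exon, the gene was covered unevenly but in a like order in the litters. The alignments in the tracks are unbroken blocks of 72 bases, so one that lies whole within an exon needs 72 bases of it. An exon of 74 bases, the shortest here (exon 12), then offers 3 start positions, or 4.05% of its bases, while exon 19 of 494 bases offers 423, or 85.6%. A second scale, the start density, divides alignments whole within an exon by its possible start positions, per kilobase and per 1000000. It leaves out alignments that run over an exon border, which were 41 of the 48 of exon 12 in litter 3.

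Of the 19 exons, 12 held a whole alignment in all 3 litters, 5 in some of them and 2 in none. Across the 19 exons, exon RPKM of litter 1 had a Spearman's rho of 0.94 with litter 2 and 0.81 with litter 3. Between the remaining pair it was 0.74. Exons of 1 gene share its transcripts and libraries, so these values are descriptions. The highest exon was exon 18 in litters 1 and 3 and exon 3 in litter 2. Exons 3, 18 and 19 together held 61.1%, 64.6% and 63.2% of the exonic alignments.

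At the 5′ end, exon 1 (492 bases, GC content 79.5%) held 0, 1 and 0 alignments in litters 1, 2 and 3. It contains 354 coding bases and the annotated start of the RNA. Litter 2 alone touched it, over 72 bases. Exon 2 held 13, 43 and 0 alignments, so it was without any in litter 3, where a count of 0 allows a start density of up to 0.986. In litters 1 and 2 its start density was 3.89 and 13.6. The 5 kb upstream of the gene held 0 alignment starts in each litter.

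The middle of the gene alternated between deep and nearly empty exons. Exon 4 (79 bases) had 2, 2 and 0 alignments, where 8 start positions exist. Exon 6 stood at 7.08, 3.82 and 2.04 RPKM. Exon 7 stood at 23.5, 31.2 and 4.87 RPKM and exon 8 at 27.4, 56.8 and 6.77 RPKM. In exons 6, 7 and 8 litter 3 was the lowest. Exon 9 stood at 8.94, 3.52 and 3.04 RPKM. Exon 10 (91 bases) had 0, 2 and 4 alignments, next to exon 11 with 141, 238 and 102 alignments at 29.5, 55.1 and 23.4 RPKM. Exon 12 had 6, 4 and 48 alignments, with its highest level in litter 3 where exon 11 had its lowest, although only 3 start positions lie whole within it. Exon 13 was also highest in litter 3, at 7.52 RPKM against 3.80 and 5.56 in litters 1 and 2.

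Towards the 3′ end, exon 14 stood at 10.5, 13.7 and 2.35 RPKM. Exon 16 had 3, 1 and 1 alignments and exon 17 had 2, 8 and 9. Exon 18 was deep in every litter, at 56.6, 63.5 and 38.8 RPKM (53.0 ± 12.8, SD, n = 3). Exon 19, with the last 183 coding bases and the 3′ untranslated region, was the steadiest of the well covered exons, at 12.8, 10.2 and 13.5 RPKM (12.2 ± 1.71, SD, n = 3). It was the exon of the largest share in litter 3, with 30.6% of the alignments there against 18.6% and 8.63% in litters 1 and 2.

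**Figure D3:**
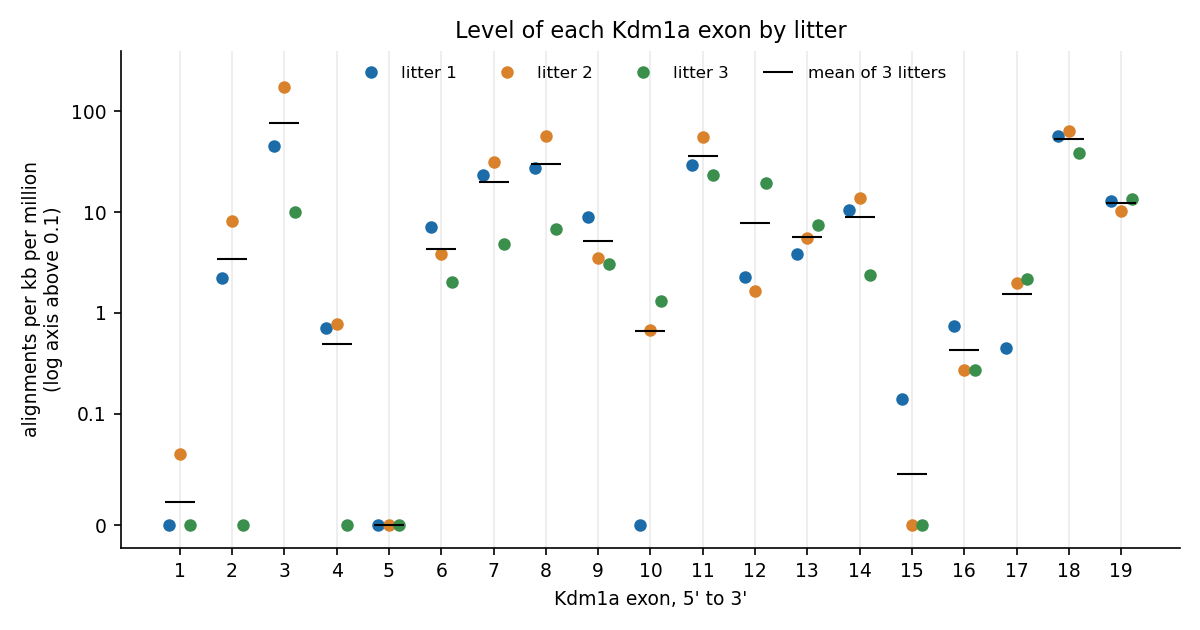
Level of each of the 19 Kdm1a exons in alignments per kb per 1000000 (log axis above 0.1), with 1 point per litter and a bar for the mean of 3 litters. Exons 1, 5 and 15 lie at or near 0 in all litters, while exon 18 stays between 38.8 and 63.5.

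As to missing exons, exon 5 had a depth of 0 at every base in all 3 litters, and exon 15 had 1 alignment at its border in litter 1 and nothing else. For exon 5 (chromosome 4, 136128988 to 136129080, mm9, GC content 46.2%), with 22 possible start positions, a count of 0 allows a start density of up to 3.88, 4.29 and 4.26 in litters 1, 2 and 3. The median exon stood at 9.71, 11.4 and 5.64. For exon 15 (136110128 to 136110315, GC content 45.2%), with 117 possible start positions, the limit was lower, at 0.729, 0.807 and 0.800. These limits cover counting error only. The exons on either side of exon 5 were also thin or modest. Next to exon 15, exon 16 held 5 alignments in all, while exon 14 held 49, 58 and 10 in litters 1, 2 and 3. By the other definition, a level under 10% of the median exon in every litter, exon 1 joined exons 5 and 15. Across the 19 exons, mean RPKM had a Spearman's rho of 0.056 with exon length and 0.046 with GC content, and exon 1 had the highest GC content of the gene. Whether the RNA lacks these exons or the libraries did not capture them was not tested.

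The litters also differed in how coverage was divided between the ends of the RNA. The mean depth of the last 6 exons was 1.47 times that of the first 6 in litter 1, but 0.480 times in litter 2 and as much as 4.74 times in litter 3, giving 2.23 ± 2.23 (SD, n = 3). Without litter 3 the mean was 0.975, on the other side of 1. In every litter exon 3 was the deepest of the first 6 exons and exon 18 the deepest of the last 6. Their mean depths were 115 and 143 in litter 1, and 23.0 and 89.4 in litter 3. The ratios therefore depend largely on these exons. In litter 2 the ratio under 1 rested on exon 3, at a mean depth of 399. Each of the other first 6 exons had a mean depth of 18.6 or less there. A general lean of litter 2 to the 5′ end, or a lean to the 3′ end particular to litter 3, is therefore not shown. Of the 13 exons with depth in all litters, 9 were lowest in litter 3. The 5 exons with their highest level in litter 3 were exons 10, 12, 13, 17 and 19.

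Introns were nearly empty. Over 49176 intronic bases, 21, 7 and 9 alignments lay whole within an intron in litters 1, 2 and 3, in 3 of 18 introns. Intron 2, the longest with 15760 bases, held 32 of these 37. It also holds the processed pseudogene Gm12987 on the same strand (136140087 to 136140575), which 7, 3 and 1 alignments overlapped in litters 1, 2 and 3. An exon of another Luzp1 transcript, on the opposite strand, falls in intron 14 and was overlapped by the 1 alignment there, in litter 1. Neither shares a base with an exon of Kdm1a. The intronic level was 0.0159, 0.0110 and 0.00803 RPKM in litters 1, 2 and 3, or 0.141%, 0.0564% and 0.112% of the exonic level (0.103% ± 0.0429, SD, n = 3). Leaving out the 1% of intronic bases with the highest depth brought the mean to 0.000335 RPKM. So few alignments cover only a small part of the introns wherever they lie. The drop therefore does not show that the intronic signal was concentrated.

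Alignments that left an exon did so by few bases. Against 3209 alignments whole within exons, 549 ran across an exon border, and 534 of these by 5 bases or fewer. The longest overhang was 8 bases. In intron 11, of 601 bases between exons 11 and 12, the overhangs gave the highest level of any intron. It stood at 0.0552, 0.0611 and 0.0772 RPKM in litters 1, 2 and 3, with 0 alignments whole within it.

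**Figure D4:**
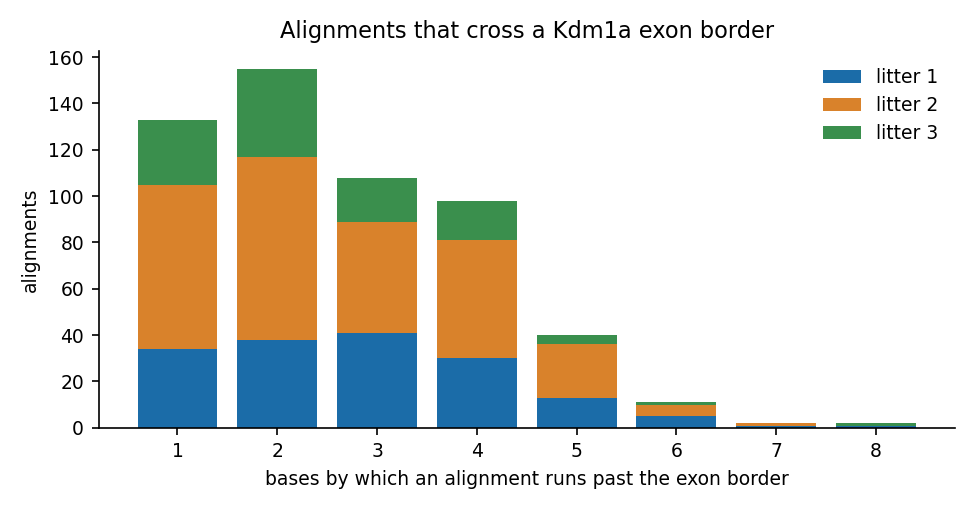
Number of alignments that cross a Kdm1a exon border, by the bases they run past it, stacked by litter. The counts fall from 155 at 2 bases to 2 at 8 bases, and no alignment runs further.

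Kdm1a is known for alternative exons that other transcripts of the annotation carry. The one in intron 2 of transcript Kdm1a-202, shown because a read of 72 bases cannot lie whole within its 60 bases, reads as follows, with no base deep enough for capitals.
Kdm1a-202 exon in intron 2: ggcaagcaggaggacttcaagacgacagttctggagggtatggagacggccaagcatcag
It lies at chromosome 4, 136137955 to 136138014 (mm9). It was overlapped by 2, 4 and 0 alignments in litters 1, 2 and 3, running past its borders by up to 11 bases. The exon of 12 bases in intron 8 of Kdm1a-208, a short insert, was overlapped by 0 alignments in each litter. The exon of 90 bases in intron 13 of Kdm1a-207 has 19 possible start positions and was also overlapped by 0. An alignment of 72 bases cannot lie whole within an exon of 12 bases.

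A read that matches several copies of a sequence could add depth at each of them, so Kdm1a was searched for counts that recur elsewhere. Of its 52 short runs of starts (50 or more alignments each), 0 recurred elsewhere in the genome with the same spacing and the same counts in each litter. Over the whole genome 141015 of 665490 runs did.

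Kdm1a was then set beside genes of its pathway, listed by role. Only genes whose exon pattern could be placed in the files received a level, by the start position measure with a ratio of at least 1.5. Of 56 genes in all lists 24 were placed. The depth score chosen first placed 14. Of the 11 genes that both measures placed, 10 had the same place to within 10 bases and Kmt2a did not. Rcor1, Hdac1, Phf21a, Zmym2, Zmym3, Kdm1b, Kdm5a, Kdm5c, Kdm3b and Hnrnpr scored highest by depth at other places, at ratios under 1.5. Their places and levels are less certain for that reason. Levels rest on the start position measure alone, a choice made after seeing the data. On the scale of start density, which allows for exon length, Kdm1a stood at 17.7, 30.1 and 11.05 in litters 1, 2 and 3 (19.6 ± 9.67, SD, n = 3).

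In the LSD1-CoREST complex and its recruiters, 7 of 13 genes were placed. Hdac2, a deacetylase of the complex, had a start density of 43.2, 41.4 and 33.1 (39.3 ± 5.40, SD, n = 3), above Kdm1a in every litter. Its paralog Hdac1, also a deacetylase of the complex, stood at 0.933, 2.01 and 1.73, below Kdm1a in every litter. Rcor1, the CoREST scaffold that joins LSD1 to the deacetylases, stood at 4.63, 4.12 and 6.996 (5.25 ± 1.54). Gse1 had 10.8 ± 5.99, the zinc finger genes Zmym2 and Zmym3 had 4.60 ± 1.68 and 1.95 ± 1.02, and Phf21a, the reader of unmethylated H3K4 in the complex, had 1.49 ± 0.209 (SD, n = 3 each). All placed members of this list except Hdac2 lay below Kdm1a in all 3 litters.

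Among other demethylases of H3K4 and H3K9, 5 of 9 genes were placed. Kdm1b, the gene of LSD2, had a start density of 12.7, 18.3 and 20.3 in litters 1, 2 and 3 (17.1 ± 3.97, SD, n = 3). It lay below Kdm1a in litters 1 and 2 and above it in litter 3, so the ranges of both genes over the litters overlapped. Kdm4a, which acts on H3K9 and H3K36, had 14.5, 25.3 and 11.4 (17.1 ± 7.29). Kdm5c, an H3K4 demethylase of the X chromosome, had 4.798 ± 2.46, Kdm3b had 1.62 ± 0.632 and Kdm5a had 0.116 ± 0.136 (SD, n = 3 each).

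All 6 H3K4 methyltransferase genes were placed. Kmt2c was the highest, with a start density of 48.0 ± 10.5, and Kmt2a the lowest, with 0.574 ± 0.184 (SD, n = 3 each). The depth score put Kmt2a at another place, with a ratio of 1.54, so its level is uncertain. Kmt2d (18.7 ± 4.93), Setd1a (15.3 ± 1.49) and Kmt2b (14.5 ± 5.17) had means within 1 SD of Kdm1a's, and Setd1b had 5.12 ± 1.39. Beside Kdm1a on the chromosome, Tcea3 had 20.97 ± 12.7 and Hnrnpr 1.54 ± 0.468. The transcript taken for Hnrnpr has 21452 exonic bases, against 3008 for Kdm1a. It held 1061, 1345 and 743 whole alignments in litters 1, 2 and 3, against 1034, 1588 and 587 for Kdm1a. The level of Hnrnpr therefore depends on the long transcript chosen.

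Among the 25 genes ranked, Kdm1a was in place 10, 7 and 11 in litters 1, 2 and 3. In the order of means it came after Tcea3 and before Kmt2d, and the 3 differed by less than their spread between litters. In all litters 6 of the other 24 genes lay above it and 12 below. A gene is placed only where alignments fall on its exons, so listed genes with few alignments can be missing from this order. The zona pellucida genes Zp2 (69.5, 64.3 and 63.8) and Zp3 (51.3, 43.8 and 21.3), both oocyte-specific, were above Kdm1a in each litter. Kdm1a's range over the litters, 2.73-fold on this scale, was exceeded by 5 of the other 24 genes, whose median was 1.92-fold. In litter 2, 608 of the 1588 whole alignments of Kdm1a lay in exon 3. Its range, and its place in litter 2, therefore rest partly on that exon. Without exon 3 its RPKM was 1.73-fold apart. Of the 24, 16 were lowest in litter 3, as Kdm1a was, while 11 were highest in litter 1, 8 in litter 2 and 5 in litter 3. The genes most like Kdm1a over the 3 litters, by the mean absolute difference of log2(start density + 0.1), were Kdm4a (0.19), Setd1a (0.45) and Kmt2b (0.51).

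**Figure D5:**
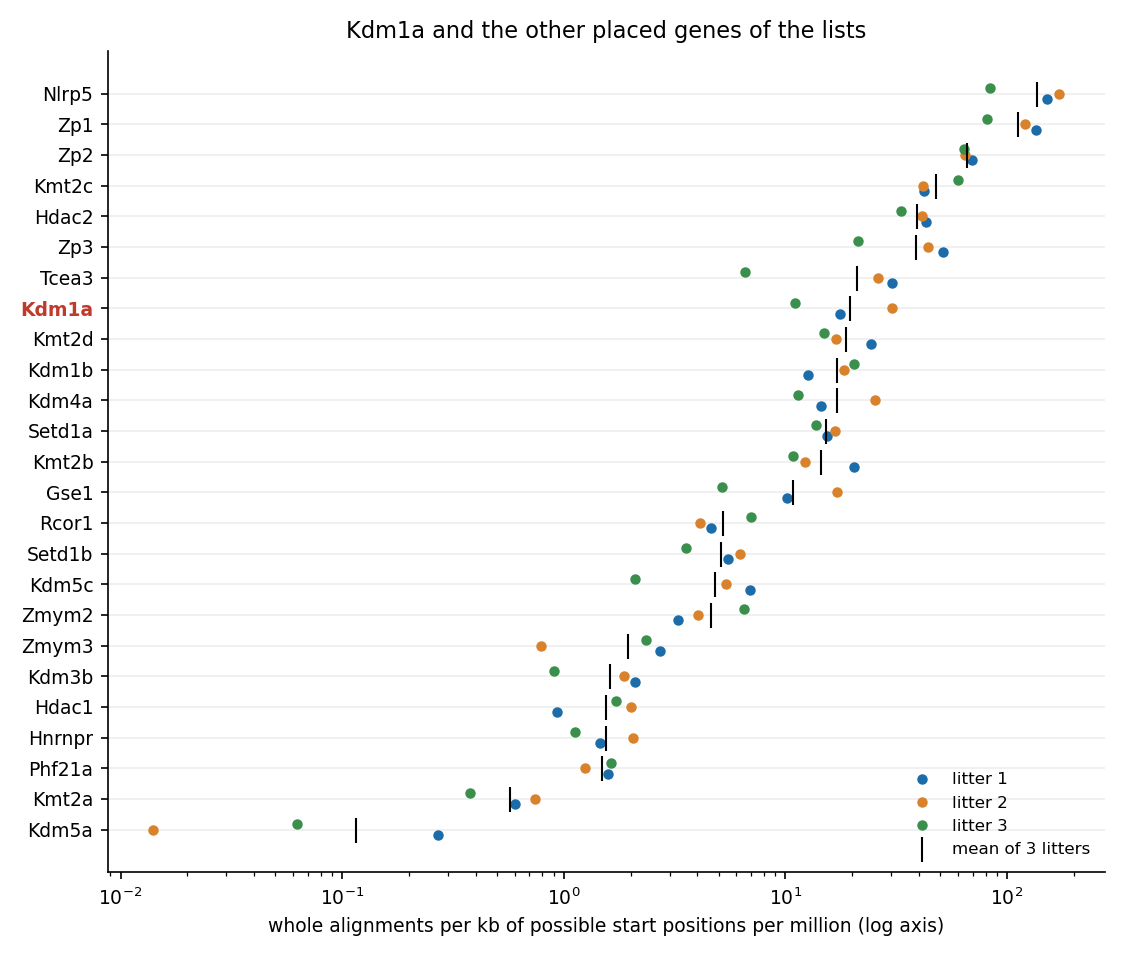
Start density of Kdm1a and 24 other placed genes (whole alignments per kb of possible start positions per 1000000, log axis), with 1 point per litter and a bar for the mean. Kdm1a lies in the middle of the order, with Hdac2 above it and Rcor1 below it in every litter.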

How the data were processed

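The authors deposited 1 coverage track per library, a signal that gives the number of alignments over each base, not scaled to depth. The submitters' processing notes name Bowtie and mm9, with settings not given in the sources used here, and per the file headers each track comes from the alignments of 1 lane. Steps in depth were turned into alignment starts at a fixed length of 72 bases, which left 0 negative values in each library; 99.9% of isolated blocks at a depth of 1 were 72 bases long. The library total is the summed depth divided by 72. Strand is not recorded, so antisense reads cannot be told apart.

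Gene models came from GENCODE M21 (the transcript with the best APPRIS tag, support level and length) and were placed by matching exon spacing within 10 Mb; no coordinates were converted. RPKM is summed depth divided by 72, per kilobase and per 1000000 alignments. Windows of 1 kb were tested by chi-square with Benjamini-Hochberg adjustment (scipy 1.17.1, numpy 2.4.6), after the scripts had been tested on simulated data. Named were Kdm1a with every exon, the placed genes of the lists and the 3 most like it in level. The gene, the lists and the tests were chosen with earlier results of these data known.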

Additional observations from a re-analysis of the deposited data

How the results depend on the processing

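Among 54 alternatives, 37 moved a mean by less than 1 SD, a count or ratio by no more than 1.5 times, or the place by no more than 10 bases. For means, leaving out a litter can hardly pass that spread. By depth, litter 3 alone placed the gene at a shift of -7025858 bases from the annotation's coordinates in place of -444085. The mean exonic level of 12.6 RPKM became 24.8 with each start position counted once, where the total shrinks too, and 19.6 with whole alignments per possible start. The mean intronic level of 0.0116 became 0.000335 without the 1% deepest bases and 0.0443 with each start counted once, and the intron to exon ratio 0.175%. Exons without depth at any base numbered 1 in place of 2. The ratio of the highest to the lowest litter was 1.56 with each start counted once, 1.73 without exon 3 and 1.57 to 2.70 leaving out each litter, the lowest without litter 2 (1.73 without litter 3). Windows past both limits numbered 5943 with a 2-fold limit, and 115 to 1691 leaving out each litter, the lowest without litter 3 and 1203 without litter 2. Placed genes numbered 22 at the lower ratio tried, 4 at a ratio of 2 and 24 by start positions. For all of these the cause was not tested. The start position measure, leaving out exon 3, single litters by covered bases and the intron to exon ratio without 100 bases beside exons were chosen after seeing the data. No paired analysis was possible because all litters form 1 group. Depth limits exons with few start positions.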

Other observations

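The stretch just past the 3′ end of Kdm1a differed between litters. In the 1 kb beyond the annotated end, 0, 0 and 62 alignments started in litters 1, 2 and 3. The nearest alignment ended 1227, 1229 and 382 bases from the end of exon 19. Luzp1, whose main transcript ends 1220 bases away, is transcribed towards Kdm1a and has another annotated transcript that runs on into it, and the tracks carry no strand. This stretch was chosen after its values were seen, and its source was not tested.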
